A study of Mus musculus with 115 samples.

Results

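The tumor suppressor gene Trp53, the genes of its negative regulators Mdm2 and Mdm4, and the genes of the cyclin-dependent kinase (CDK) inhibitors Cdkn1a, Cdkn1b, Cdkn1c, Cdkn2a, Cdkn2b, Cdkn2c and Cdkn2d were followed in the prostates of tumor-prone mice. These 10 genes were chosen by name and not by their values. All 10 were found by Ensembl identifier among the 45699 genes of the deposited table, and all 10 had a mean of at least 1 TPM (RSEM's transcript abundance, scaled to 1 fixed total in each library), as 14623 genes did in all.

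RNA was sequenced from prostates of males, each library labelled as transgene positive and as an F2 from TRAMP and the wild-derived strain WSB/EiJ, so there is 1 group with no treatment and no transgene-negative control. TRAMP mice carry the SV40 T antigen under the probasin promoter, which drives it in prostate epithelium. The mice were kept to a set age or a humane endpoint, and RNA of small prostates was taken from the ventral prostate, so libraries can differ in age, in lobe and in the amount of tumor, none of which was used here. TPM counts transcripts per length and per library, so levels of different genes can be set side by side, but it keeps no sequencing depth, and the counting error of each value is unknown. In bulk tissue, fewer cells with a transcript and less of it per cell cannot be told apart, and the p-values below measure only the spread between libraries.

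The p53 protein is held low by Mdm2, a ubiquitin ligase that p53 itself induces, and by Mdm4, which binds its activation domain. When p53 is stabilised it induces Cdkn1a, whose product p21 blocks cyclin-CDK complexes. Cdkn1a, Cdkn1b (p27) and Cdkn1c (p57) form the Cip/Kip family. Cdkn2a (p16), Cdkn2b (p15), Cdkn2c (p18) and Cdkn2d (p19) form the INK4 family, which binds CDK4 and CDK6 and keeps the retinoblastoma protein active. Cdkn2a also encodes Arf, which inhibits Mdm2. SV40 T antigen binds both p53 and the retinoblastoma protein. The mRNA of Trp53 says little on the activity of its protein, which is set mainly by stability.

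The sequences below are shown for 2 of the genes, Cdkn1a and Cdkn2a. Whether the marked promoter motifs relate to the values was not tested. Cdkn1a lies on chromosome 17 from 29090976 to 29100727, plus strand, in GRCm38. The first line gives the bases at chr17:29090868-29090975, plus strand of GRCm38.p6 (RefSeq), just before its first annotated base, with capitals for a pair of adjacent p53 half-sites found by a search on both strands.
Cdkn1a promoter: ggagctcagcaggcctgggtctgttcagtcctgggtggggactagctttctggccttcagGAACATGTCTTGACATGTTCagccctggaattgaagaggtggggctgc
The second line gives the bases at chr4:89294654-89294778, minus strand, before the upstream start of Cdkn2a, with capitals for an E2F site.
Cdkn2a promoter: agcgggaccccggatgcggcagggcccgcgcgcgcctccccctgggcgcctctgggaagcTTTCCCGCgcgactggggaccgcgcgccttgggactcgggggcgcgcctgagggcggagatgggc
Cdkn2a lies on chromosome 4 from 89274471 to 89294653, minus strand, and its 2 annotated transcripts differ in the first exon. The next lines give the coding bases of these first exons, with the start codon in capitals, at chr4:89281986-89282111 for p16 and at chr4:89294334-89294523 for Arf, minus strand of GRCm38.
Cdkn2a-201 (p16) exon 1: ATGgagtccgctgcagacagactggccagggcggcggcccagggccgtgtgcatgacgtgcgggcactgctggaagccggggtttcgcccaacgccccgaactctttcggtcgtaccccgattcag
Cdkn2a-202 (Arf) exon 1: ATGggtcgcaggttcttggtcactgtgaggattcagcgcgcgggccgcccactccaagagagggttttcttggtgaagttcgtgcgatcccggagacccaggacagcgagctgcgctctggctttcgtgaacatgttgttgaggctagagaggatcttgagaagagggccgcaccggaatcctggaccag
Both transcripts join the same second exon, whose coding bases end at 89276985 on the first-exon side, and read it in different frames. The deposited value of Cdkn2a is per gene, so it sums p16 and Arf. An adjacent pair of p53 half-sites with no spacer and at most 1 mismatch occurred in 0.0883% of 32851 RefSeq promoters, each a window of equal length around an annotated start. Among the 10 genes it occurred in Cdkn1a alone, in 1 of its 2 promoters, the one shown. This motif was chosen after the sequence had been seen. A single half-site occurred in 8.36% of promoters, in those of Trp53, Mdm2 and Cdkn2d, and in 1 of the 2 of Cdkn1a. An E2F site (TTTCCCGC, TTTCGCGC, TTTGCCGC or TTTGGCGC, either strand) occurred in 2.26% and, among the 10, in Cdkn2a alone. There it lay in 1 of 2 promoters, that before the Arf transcript. No promoter was searched for Cdkn1c.

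The libraries did not form 1 continuous cloud. The first principal component of log2(TPM + 1) separated them into a larger part of 79 and a smaller part of 36, with a fall in the Bayesian information criterion of 196 and an Ashman D of 6.10, and no library changed part when the 10 genes, Mki67, Chga and all listed genes were left out. Mki67, a marker of cycling cells, spanned 0.39 to 25.7 TPM in the larger part and 20 to 144 TPM in the smaller. Chga (chromogranin A), a marker of neuroendocrine cells, spanned 0.06 to 4.84 TPM in the larger part and 0.15 to 479 TPM in the smaller. The 9 prostate luminal markers summed to between 337 and 60967 TPM in the larger part and to between 46.4 and 2742 TPM in the smaller, and none of them was at 0 in every library. Correlations were therefore computed within each part and never over both, and the parts, which come from these data, were not tested against each other.

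Sets of libraries inside the parts also stood apart. In the smaller part, W1050, W1118, W1790 and W1915 had 0.15 to 2.55 TPM of Chga, while the other 32 had 21.2 to 479 TPM. These 4 were fewer than the 6 libraries that the rule for a part asked for, so this split did not meet it. The stroma markers of the 4 summed to a median of 1542 TPM against 186 TPM in the 32, and their immune markers to 171 to 666 TPM against 17.95 to 504 TPM. Their luminal markers summed to 749 to 1419 TPM, against 46.4 to 2742 TPM (median 86.9) in the 32. In the larger part, the 6 libraries named W5000 to W5005 held the 6 lowest Cdkn2a values of all libraries, 0 to 0.07 TPM, and 5 of the 6 lowest Mki67 values, and their Mki67 ran from 0.39 to 0.93 TPM. Their immune markers summed to 17.03 to 45.02 TPM, against a median of 116 TPM in the other 73. All 6 lie among the last columns of the deposited table, from W4356 to W5004, where the other libraries belong to the smaller part. The labels give these 6 the same genotype as all others. Whether they carry or express the transgene was not tested, so the label stands unchecked for them. The correlations with Mki67 and the number of pairs in the larger part are given with and without the 6. In the smaller part, those with Mki67 and Chga and the pairs are given with and without the 4. Other settings and gene lists were not all repeated without these sets.

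Levels of the 10 genes differed more in spread than in height. Ordered by median TPM over all libraries, Mdm4 (27.98) stood first, followed by Cdkn1b (26.8), Cdkn2c (22.9), Mdm2 (19.3), Cdkn2a (12.6), Cdkn2d (5.58), Trp53 (5.21), Cdkn2b (3.39), Cdkn1c (3.18) and Cdkn1a (2.24). This order of medians was the same after median-of-ratios scaling and after rescaling without the 20 genes of largest share. Most neighbours in it were not separated beyond their spread within libraries. Mdm4 exceeded Cdkn1b in 68 of all libraries, 62 of the 79 and 6 of the 36. Cdkn2a exceeded Cdkn2d in 57 of all libraries, 53 of the 79 and 4 of the 36. Cdkn2b exceeded Cdkn1c in 50 of all libraries, 45 of the 79 and 5 of the 36, so their medians and their order within a library disagreed. The neighbours that kept their order most often were Trp53 over Cdkn2b, in 95 of all libraries (73 of the 79 and 22 of the 36), and Mdm2 over Cdkn2a, in 90 (64 and 26).

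**Figure D1:**
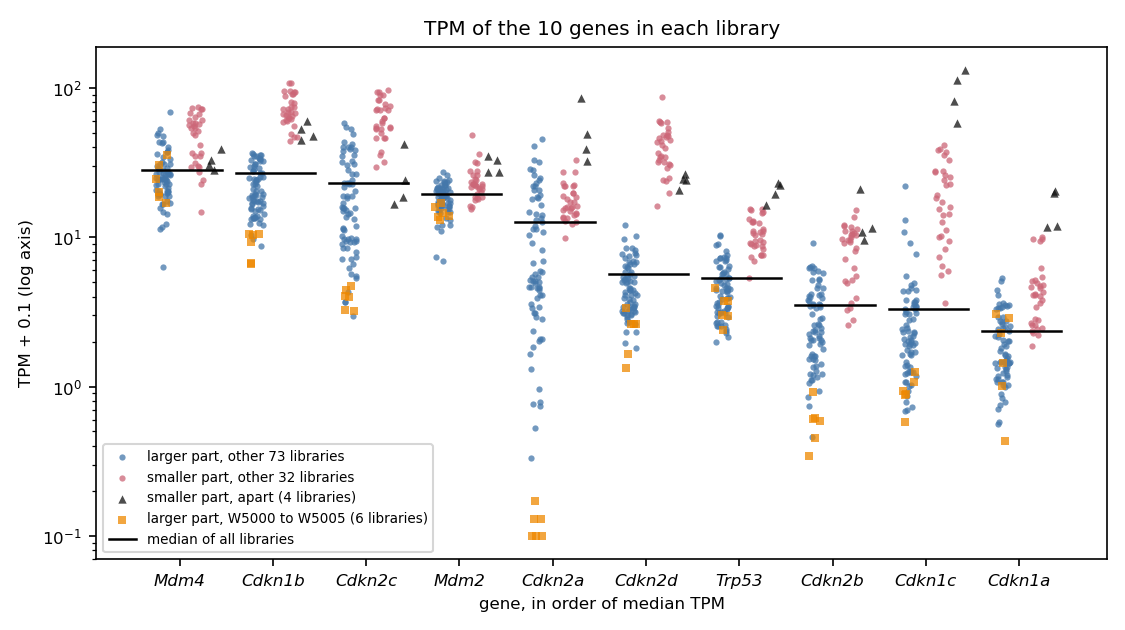
TPM + 0.1 on a log axis for each of the 10 genes (x axis, in order of the median) in every library, 1 point per library, with the median over all libraries as a line. The 36 libraries of the smaller part lie above the larger part without overlap for Cdkn1b and Cdkn2d, and the 6 libraries W5000 to W5005 are the lowest for Cdkn2a. How many of all genes show no overlap was not counted.

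Trp53 was a low to moderate transcript. It lies on chromosome 11 from 69580359 to 69591873, plus strand, and ran from 1.89 to 10.2 TPM with a median of 4.2 in the larger part, and from 5.20 to 23.1 TPM with a median of 10.7 in the smaller. The parts overlapped between 5.20 and 10.2 TPM, and the 4 highest values over all libraries were those of the 4 libraries apart, 16.3 to 23.1 TPM.

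Mdm2 was the steadiest of the 10. It lies on chromosome 10 from 117688875 to 117710758, minus strand, and ran from 6.79 to 27.3 TPM with a median of 17.6 in the larger part and from 15.4 to 47.98 TPM with a median of 22.5 in the smaller. The ratio of its 90th to its 10th percentile over all libraries was 1.81, smaller than that of all but 0.78% of the 14623 genes, whose median ratio was 4.27. Mdm4, on chromosome 1 from 132959484 to 133030561, minus strand, had a ratio of 3.38. It ran from 6.25 to 68.9 TPM in the larger part and from 14.6 to 74.3 TPM in the smaller, with medians of 24.5 and 49.1. The lowest value of both genes came from 1 library, W1154.

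The Cip/Kip genes had 3 different profiles. Cdkn1a was the lowest of the 10, from 0.33 to 5.19 TPM with a median of 1.51 in the larger part and from 1.76 to 20.2 TPM with a median of 4.13 in the smaller. Its 4 highest values, 11.6 to 20.2 TPM, were again those of the 4 libraries apart, and the other 32 of the smaller part stopped at 9.95 TPM. Cdkn1b, on chromosome 6 from 134920401 to 134925513, plus strand, is a broadly expressed gene whose protein is controlled mainly by degradation. It did not overlap between the parts, with 6.49 to 36.5 TPM (median 19.2) in the larger and 44.1 to 108.48 TPM (median 67.3) in the smaller. The parts were cut on a component that held 48.7% of the variance of all genes tested. How many of those genes do not overlap was not counted, so the gap is not read as particular to Cdkn1b. Cdkn1c, an imprinted gene on chromosome 7 from 143458339 to 143461050, minus strand, had the widest spread of the 10, with a 90th to 10th percentile ratio of 29.3. It ran from 0.48 to 22 TPM (median 1.91) in the larger part and from 3.51 to 131 TPM (median 20.7) in the smaller. The 4 libraries apart had 58.6 to 131 TPM, all above the highest of the other libraries, 41.6 TPM. An antisense gene annotated on the other strand, Gm44732, shares 625 of its 2039 exonic bases, and AC167363.2 shares 273 of 3553 for Cdkn1a. The TruSeq library kit that the study names does not mark strand, so reads of such partners cannot be told apart.

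The INK4 genes were low in some libraries of the larger part and had higher medians in the smaller, but only Cdkn2d did not overlap between the parts. Cdkn2a spanned the whole range from 0 to 45.4 TPM (median 5.05) within the larger part, with 3 libraries listed at 0. It ran from 9.75 to 86.1 TPM (median 17.1) in the smaller. Without the 4 libraries apart, Cdkn2a stopped at 33 TPM there, below the highest value of the larger part. Cdkn2b is its neighbour, on chromosome 4 from 89306299 to 89311039, minus strand. It ran from 0.24 to 9.03 TPM (median 2.21) and from 2.50 to 21 TPM (median 9.51). Cdkn2c, on chromosome 4 from 109660876 to 109667189, minus strand, ran from 2.87 to 57.8 TPM (median 14.8) and from 16.6 to 97.2 TPM (median 56.6). Cdkn2d, on chromosome 9 from 21288410 to 21291407, minus strand, did not overlap between the parts, with 1.24 to 12.01 TPM (median 4.14) and 16.1 to 87 TPM (median 35.8). As for Cdkn1b, the share of all genes without overlap was not counted. Cdkn2c went the other way from Cdkn1c in the 4 libraries apart, whose 16.6 to 42.1 TPM reached below the 29.6 TPM that was the lowest of the other 32.

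The first question was whether the genes follow proliferation, read from Mki67. In the 79 libraries of the larger part all 10 rose with Mki67 on the deposited scale, of which Mdm2 and Mdm4 turned negative under another scaling (Pearson's r tested two-sided by permutation, with p-values adjusted by Benjamini-Hochberg over 14622 genes, adjusted p = 2.33e-05 for 9 genes and 0.000102 for Mdm4). This count has to be read against the background, since 72.9% of all genes tested were called positive in the same way and 1.41% negative. The median r of all genes was 0.43, and that of the 10 was 0.79. What differed among the 10 was the size of r.

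Cdkn2a stood first, with r = 0.93 and rho = 0.92 (both with a permutation p of 1e-05, n = 79, which 100000 resamples cannot go below), and r was 0.93 after the 2 libraries most distant in Mki67 were dropped. Of all genes tested, 98.9% had a lower r. The next were Cdkn2d with r = 0.87, Cdkn2b with 0.82 and Cdkn2c with 0.82, so the 4 INK4 genes took the first 4 places, above 96.7% to 98.9% of all genes. Trp53 had r = 0.79 and rho = 0.80, above 95.7% of genes, and Cdkn1b had 0.78. Cdkn1a followed with 0.70.

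Cdkn1c, Mdm2 and Mdm4 were near the middle of all genes. Their r was 0.49, 0.48 and 0.46, above 58.2%, 56.6% and 54.1% of genes. For Mdm2 and Mdm4 the direction depended on the scale, since r became -0.27 (permutation adjusted p = 0.0417) and -0.06 (adjusted p = 0.70) after median-of-ratios scaling, and -0.04 and 0.15 after rescaling without the 20 genes of largest share. These scalings moved the median r of all genes from 0.43 to -0.02 and to 0.11. Under the median-of-ratios scaling 22.2% of genes were called positive and 20% negative, and the other 8 members kept a positive call with r from 0.34 for Cdkn1c to 0.92 for Cdkn2a. The median-of-ratios factor itself had r = 0.61 with Mki67 and 0.85 with Mdm2 over the 79 libraries, both given as descriptions.

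**Figure D2:**
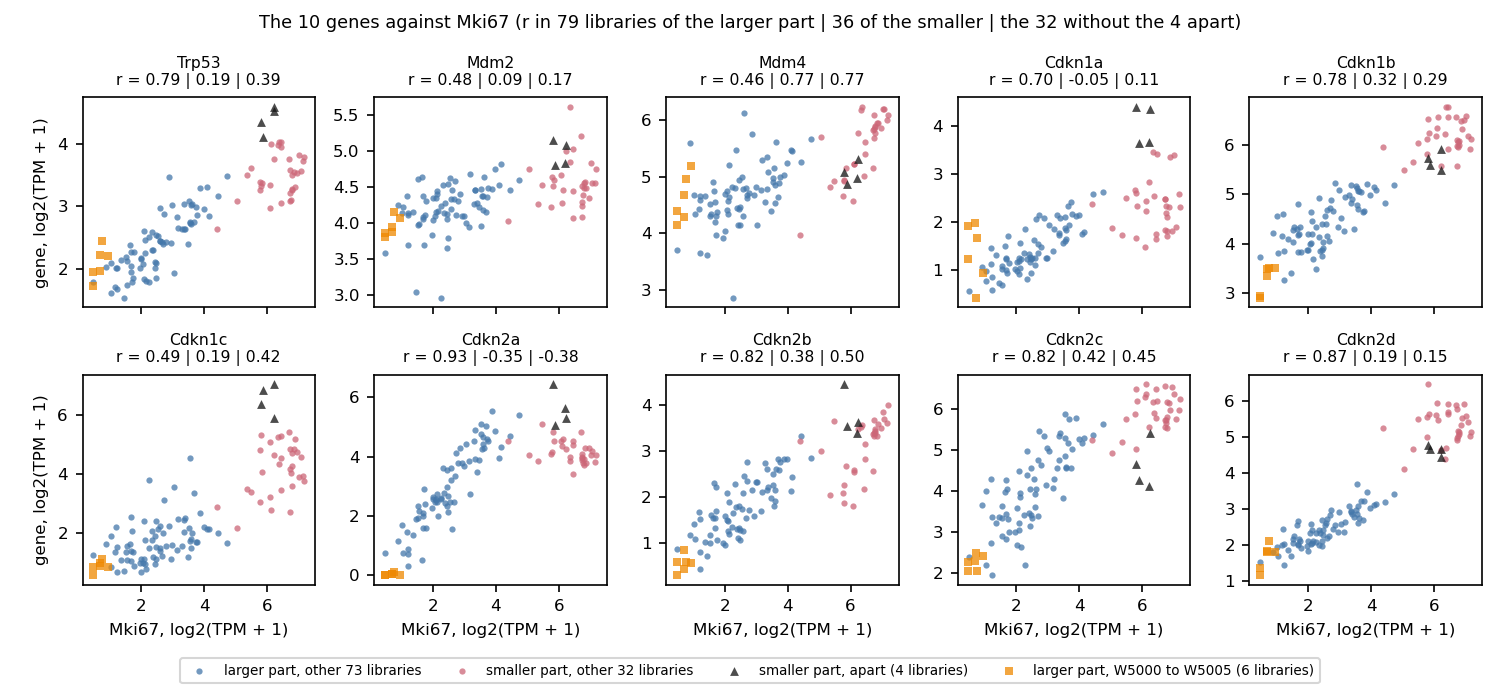
Each panel plots 1 gene (y axis) against Mki67 (x axis), both as log2(TPM + 1), 1 point per library, with r in the 79, in the 36 and in the 32 libraries without the 4 apart above it. Within the larger part Cdkn2a forms the tightest band with r = 0.93, and within the smaller part its r of -0.35 was not called.

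The 6 libraries W5000 to W5005 lie at the low end of this relation and did not carry it. Without them, in 73 libraries, all 10 genes were again called positive against 70.4% of all genes, and r was 0.91 for Cdkn2a, 0.86 for Cdkn2d and 0.82 for Trp53. Cdkn1a gained most, from 0.70 to 0.81. The 6 had 0.33 to 2.94 TPM of Cdkn1a, with a median of 1.75 against 1.51 in the other 73. Cdkn1b moved from 0.78 to 0.71. After median-of-ratios scaling of the 73, Cdkn1c had r = 0.25 and was not called (permutation adjusted p = 0.0766), and Mdm2 had r = -0.25 (adjusted p = 0.0693).

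The 3 leading principal components of the larger part were removed as another setting. The median r of all genes with Mki67 became -0.03, with 8.97% called positive and 13.4% negative. Cdkn2a kept r = 0.59 (permutation adjusted p = 0.000297), Cdkn2d 0.42 (0.00208), Cdkn1a 0.37 (0.0070) and Trp53 0.34 (0.0159). Cdkn1b turned to r = -0.29 (adjusted p = 0.0403). The other 5 were not called, among them Cdkn2b with 0.20 and Cdkn2c with 0.22. Taking out the stroma, immune and seminal vesicle marker indices instead left r of Cdkn2a at 0.90, while Mdm4 (r = 0.18) and Cdkn1c (r = 0.23) were not called, against 49.2% of all genes called positive. In the larger part the immune index had r = 0.61 with Mki67 and 0.56 with Cdkn2a, and its part in these relations beyond that adjustment was not tested.

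In the smaller part fewer of the 10 genes passed with Mki67, and whether the parts differ was not tested. Among 36 libraries, 3 of the 10 were called, all positive, against 23.3% of all genes positive and 20.8% negative. For Mdm4, r was 0.77 and rho 0.80 (both with a permutation p of 1e-05, n = 36, adjusted p = 0.000139), above 97.6% of genes, and r was 0.81 without the 2 farthest libraries. Cdkn2c had r = 0.42 (adjusted p = 0.0286) but rho = 0.35 (adjusted p = 0.0698), and Cdkn2b had r = 0.38 (adjusted p = 0.0478) and rho = 0.50 (adjusted p = 0.00633). Cdkn2a was not called, with r = -0.35 (adjusted p = 0.0755) and rho = -0.47 (adjusted p = 0.0117 by rank). Trp53 with r = 0.19, Mdm2 with 0.09, Cdkn1a with -0.05, Cdkn1b with 0.32, Cdkn1c with 0.19 and Cdkn2d with 0.19 were not called either. The calls of Cdkn2b and Cdkn2c were lost after the luminal index was taken out (r = 0.35 and 0.28, 20.7% of all genes positive) and after 3 principal components (r = 0.23 and -0.18, 3.42% positive), while Mdm4 was called in both (r = 0.80 and 0.60). Smaller-part libraries in the last columns of the deposited table, W4356 to W5004, had 48.1 to 74.3 TPM of Mdm4, 7.95 to 15.1 of Cdkn2b and 73.6 to 144 of Mki67. Those in earlier columns, without the 4 apart, had 14.6 to 72.8, 2.50 to 13.5 and 20 to 133 TPM. All smaller-part Mdm4 values under 48.1 TPM came from earlier columns. The labels do not say what this position stands for, and its part in these relations was not tested.

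Markers of other cell types moved with these values in the smaller part. Mki67 had r = -0.62 with the luminal index, -0.48 with the immune and -0.47 with the stroma index. Mdm4 had r = -0.51 with the immune index. Cdkn2a had r = 0.54 with the immune, 0.50 with the stroma and 0.63 with the endothelial index. Without the 4 libraries apart, r of Cdkn2a with these indices was lower, at 0.35, 0.27 and 0.32. Mki67 then had r = -0.61 with the luminal, -0.50 with the immune and -0.46 with the stroma index, and Mdm4 had -0.48 with the immune index. With the 4 libraries included, taking out the stroma, immune and seminal vesicle indices left Mdm4 at r = 0.73 and Cdkn2a at -0.15. The part of these cells beyond that adjustment was not tested.

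Leaving out the 4 libraries apart added Cdkn1c, with r = 0.42 (n = 32, permutation adjusted p = 0.0377), and left Mdm4 at 0.77, Cdkn2b at 0.50, Cdkn2c at 0.45 and Cdkn2a at -0.38. Of all genes, 25.2% were then called positive and 20.6% negative. At this number of libraries a weak relation could be missed.

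In the smaller part Mki67 was related to some of the 12 proliferation markers named next and not to others. Bub1 (r = 0.76), Top2a (0.61), Ccnb1 (0.50) and Aurkb (0.40) were called, against 23.3% of all genes positive. The rest were not, from -0.25 for Mcm2 to 0.36 for Rrm2. Without the 4 libraries apart Tyms (0.53) was called too, against 25.2% of all genes. The mean z-score of 12 proliferation markers (Top2a, Ccnb1, Aurkb, Bub1, Birc5, Plk1, Mcm2, Mcm5, Pcna, Rrm2, Tyms and Cdc20) had r = 0.98 with Mki67 in the 79 libraries but r = 0.39 and rho = 0.14 in the 36 (permutation p = 0.0197 and 0.407, adjusted p = 0.0647 and 0.577). Without the 4 libraries apart these were r = 0.48 (adjusted p = 0.0281) and rho = 0.28 (adjusted p = 0.266, both by permutation). The members were therefore also set against this index, a choice made after the values had been seen. In the larger part all 10 were called positive again on the deposited scale, against 72% of genes, and Cdkn2a had r = 0.95.

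In the smaller part the index gave other calls than Mki67 did. Of the 10 genes, 6 were called, all positive, against 26.6% of all genes positive and 1.49% negative. Cdkn2a had r = 0.46 (n = 36, permutation adjusted p = 0.0294) and rho = 0.57, where its r with Mki67 was -0.35. With the single markers of the index, r of Cdkn2a ran from -0.41 for Rrm2 and 0.11 for Bub1 to 0.75 for Plk1. Without the 4 libraries apart it ran from -0.10 for Bub1 to 0.66 for Mcm2. Mdm4, the gene that followed Mki67 most closely there, had r = -0.04 with the index (adjusted p = 0.892), and Cdkn2b had r = -0.03. Cdkn1c led with r = 0.65 (adjusted p = 0.000199), followed by Trp53 with 0.54, Cdkn1b with 0.49, Mdm2 with 0.41 and Cdkn2d with 0.40. The call of Cdkn2d was lost by rank (rho = 0.27, permutation adjusted p = 0.222), and its r was 0.18 without the 2 farthest libraries. Without the 4 libraries apart, 5 were called against 24.9% of all genes. Cdkn2c then led with r = 0.80 and rho = 0.82 (both with a permutation p of 1e-05, n = 32, adjusted p = 0.000215), followed by Cdkn1b with 0.73, while Cdkn2a had r = 0.36 (adjusted p = 0.116) and Mdm2 had 0.32 (adjusted p = 0.163). By r, the calls of Cdkn2a and Mdm2 with the index were thus made only with those 4 libraries, while by rho Cdkn2a passed without them too (rho = 0.45, adjusted p = 0.0453).

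**Figure D3:**
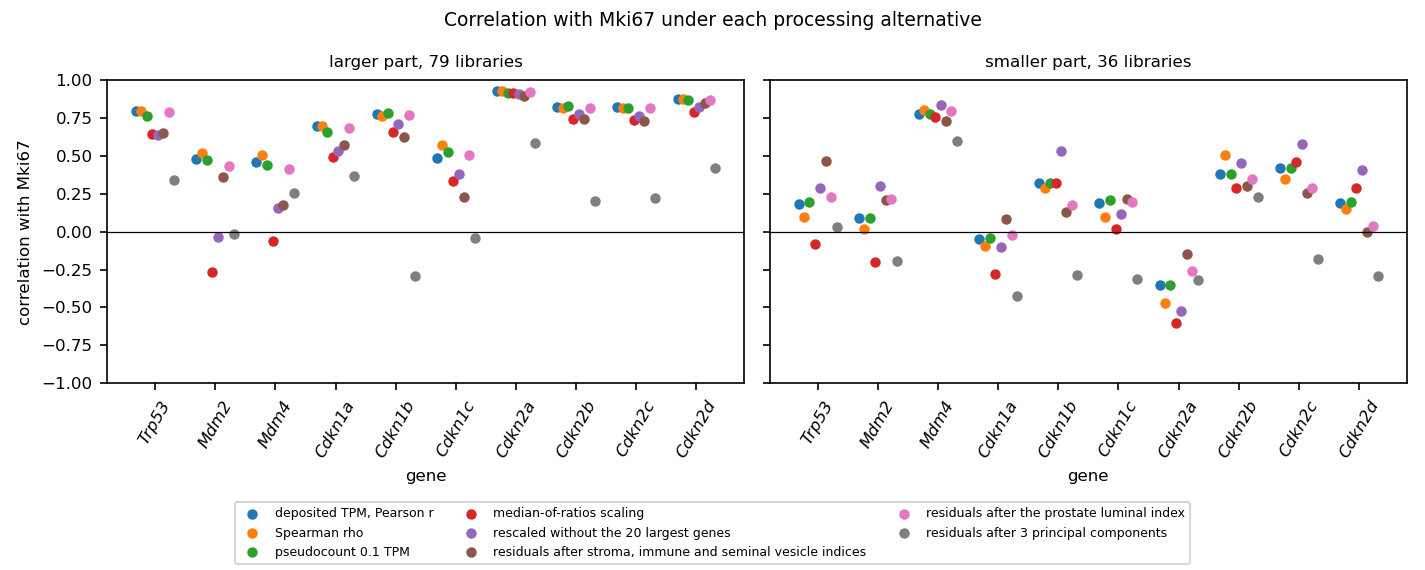
Correlation of each of the 10 genes (x axis) with Mki67 (y axis, from -1 to 1) under each processing alternative, in the larger part on the left and in the smaller on the right. Cdkn2a stays above 0.5 under every alternative drawn for the larger part, while Mdm2 and Mdm4 fall below 0 there after median-of-ratios scaling.

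The second question was whether the genes follow Chga. In the larger part none of the 10 was called over the 79 libraries on the deposited scale, against 17.1% of all genes positive and 0.109% negative. After median-of-ratios scaling Cdkn2a (r = -0.41) and Cdkn1b (r = -0.32) were called negative, as 11% of all genes were. After rescaling without the 20 largest genes Cdkn2a was (r = -0.40), as 3.66% were. These calls were not repeated without W5000 to W5005, which had the 6 lowest Cdkn2a values. The median Chga of these 6 was 0.595 TPM, against 0.29 TPM in the other 73. Chga itself separated there into 72 libraries with 0.06 to 0.81 TPM and 7 with 1.19 to 4.84 TPM, so r is also given within the 72. It ran from -0.15 for Cdkn2a to 0.25 for Mdm2, 0 of 10 genes were called by r (permutation test, adjusted over 14622 genes) or by rho, and 1 of them, Mdm2, had an unadjusted permutation p under 0.05 (0.0318). Of all genes, 1.11% were called positive and 0% negative by adjusted p, and their share at the unadjusted threshold was not counted. Cdkn2a stood low among all genes, with 1.07% having a lower r. In the 7 libraries r ran from -0.27 for Trp53 to 0.46 for Cdkn1c, and with so few no call is read from it.

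In the smaller part 6 of the 10 were called with Chga, and none of the 6 was called without the 4 libraries apart. With fewer libraries a weak relation can be missed, so a lost call alone does not show that it rested on those 4. Over the 36 libraries Cdkn2c (r = 0.62, permutation adjusted p = 0.00173) and Cdkn1b (0.53, 0.00448) were higher where Chga was higher, and Cdkn2a (-0.53, 0.0092), Cdkn1a (-0.47, 0.017), Cdkn1c (-0.46, 0.0193) and Trp53 (-0.40, 0.044) were lower. Of all genes, 9.74% were called positive and 23.7% negative. Without the 4 libraries, 0 of 10 were called (9.39% of all genes positive, 0.164% negative). The r of Cdkn2a then was 0.35, that of Cdkn1a 0.38, that of Trp53 0.37 and that of Cdkn1c 0.29, each of the opposite sign, while Cdkn1b had 0.39 and Cdkn2c 0.13. At an unadjusted permutation p under 0.05 the members were Trp53, Mdm2, Cdkn1a and Cdkn1b, all positive. The share of all genes at that unadjusted threshold was not counted, and the 9.39% is for adjusted p. An r of 0.377 with Chga in these libraries, that of Krt18, was above that of only 78.4% of genes. Spearman's rho over the 36 called 0 of 10.

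**Figure D4:**
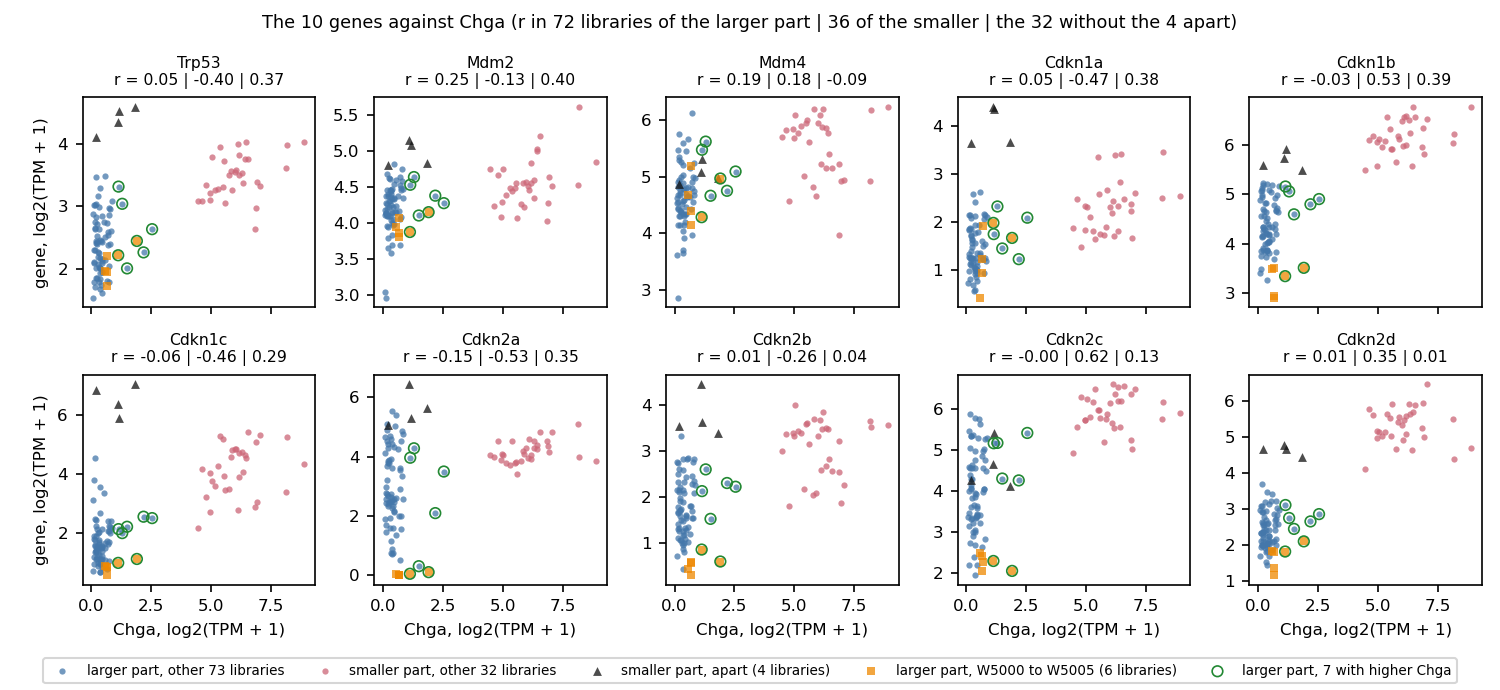
Each panel plots 1 gene (y axis) against Chga (x axis), both as log2(TPM + 1), 1 point per library, with r in 72 libraries of the larger part, in the 36 and in the 32 without the 4 apart above it. The 4 libraries apart sit at low Chga with high Cdkn1a, Cdkn1c, Cdkn2a and Trp53, and circles mark the 7 libraries of the larger part with more Chga.

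The 10 genes also moved together in the larger part. A pair was called when it passed with each of its members as the anchor over all 14622 genes, and 43 of the 45 pairs did so, all with positive r on the deposited scale, though Trp53 with Mdm2 turned to -0.34 after median-of-ratios scaling. The background is high here too, since 84.6% of all genes were called positive and 1.16% negative with Trp53, and 62.4% (Cdkn1c) to 87.9% (Mdm2) positive over the 10 genes as anchors. The highest pair was Cdkn1b with Cdkn2c (r = 0.92, rho = 0.93, both with a permutation p of 1e-05), and the INK4 genes and Cdkn1b were all paired at r from 0.80 to 0.92. The 2 pairs not called were Cdkn1c with Mdm2 (r = 0.12, rho = 0.39) and Cdkn1c with Mdm4 (r = 0.21, rho = 0.47). After the 3 principal components were removed, 16 pairs were called, 11 of them positive. Without W5000 to W5005, 43 pairs were called.

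In the smaller part 16 of the 45 pairs were called, 15 of them positive, where 6.8% (Cdkn2d) to 50.4% (Trp53) of all genes were called positive with each of the 10 as anchor. Cdkn1b, Cdkn2c and Cdkn2d kept together, with r = 0.80 for Cdkn1b and Cdkn2c (larger adjusted p of the 2 anchors 0.000812, permutation test), 0.67 for Cdkn2c and Cdkn2d and 0.65 for Cdkn1b and Cdkn2d. Trp53 and Mdm2 had r = 0.72 and rho = 0.75. These 4 pairs were called without the 4 libraries apart as well, with r = 0.78, 0.61, 0.57 and 0.68. Mdm4 had a positive r with Cdkn2b (0.58) and a negative one with Cdkn2a (-0.51, adjusted p = 0.00755), and without the 4 libraries these were 0.75 and -0.57. The part of the last table columns, W4356 to W5004, in these pairs of Mdm4 was not tested. In contrast, the pairs of Cdkn1a with Trp53 (0.65), Cdkn1c (0.64) and Cdkn2a (0.61) were not called without them, where r was 0.35, 0.35 and 0.08. With Cdkn1a as the anchor 0% of all genes were called in the 32 libraries, so no pair of it could pass there. A total of 9 pairs were called in those libraries, 8 of them positive, against 0% (Cdkn1a) to 27.2% (Trp53) of all genes.

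**Figure D5:**
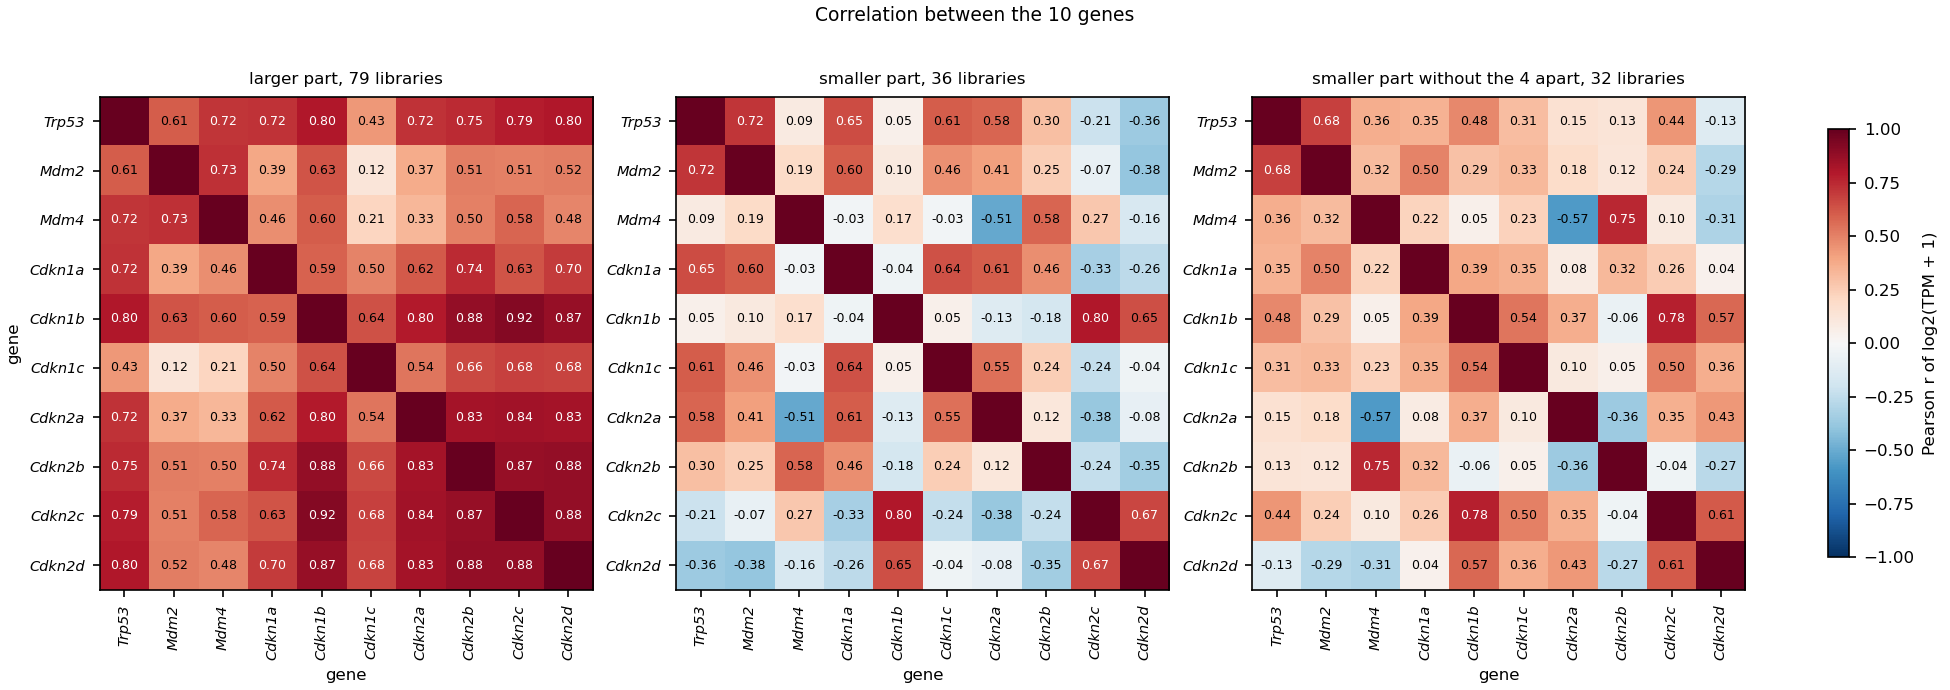
Pearson's r of log2(TPM + 1) between the 10 genes (both axes) in the 79 libraries, in the 36 and in the 32 without the 4 apart, on a color scale from -1 to 1. On the deposited scale all 45 pairs are positive in the larger part (Trp53 with Mdm2 is -0.34 after median-of-ratios scaling), while 19 are negative in the smaller part and 8 without the 4 libraries.

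Known targets of p53 were examined beside the 2 targets among the members, Cdkn1a and Mdm2. In the larger part Cdkn1a had r = 0.72 with Trp53 and Mdm2 had 0.61, both called, but after median-of-ratios scaling r of Mdm2 with Trp53 was -0.34 (permutation adjusted p = 0.00772) while that of Cdkn1a was 0.50. Of 27 other targets tested, 24 were positive with Trp53 and Gdf15 was negative (r = -0.39), near the 84.6% of all genes. With Mki67, 21 of the 27 were positive and none negative, against 72.9%, and their median r of 0.47 was close to the 0.43 of all genes. The targets most like Mki67 were Pidd1 (r = 0.86), a component of a caspase-2 complex, the kinase gene Plk2 (0.82), the DNA polymerase gene Polk (0.75) and the apoptosis gene Bax (0.75). The 6 that were not called were Rrm2b, Zmat3, Sesn2, Gadd45a, Dcxr and Gdf15, and Pmaip1 was too low to be tested.

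Among genes that act on p53, 17 of 18 tested were positive with Mki67 in the larger part and none negative, against 72.9% and 1.41% of all genes. Chek1 (r = 0.92), a checkpoint kinase gene, led, followed by Wrap53 (0.77) and the damage kinase genes Atm (0.71) and Chek2 (0.68). Trp63, a basal cell gene and relative of Trp53, had r = -0.14 and was not called. Of the partners of the CDK inhibitors 12 of 15 were positive, a share near the 72.9% of all genes, with a median r of 0.83 against 0.43. Ccna2 (0.97), Cdk1 (0.95), Rbl1 (0.93) and Cdk2 (0.93) led. Of the target kinases of the INK4 proteins, Cdk4 was called with 0.83 and Cdk6 was not (-0.10). Of the D-type cyclins that bind these kinases, Ccnd3 was called with 0.36, and Ccnd1 (0.09) and Ccnd2 (-0.17) were not.

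In the smaller part the p53 targets were called in both directions with Mki67, and the regulators mostly positive. Of the 27 p53 targets 5 were positive and 6 negative, of the 18 regulators 11 and 1, and of the 15 CDK partners 4 and 2, against 23.3% and 20.8% of all genes. Without the 4 libraries the counts were 5 and 6, 11 and 1, and 5 and 2.

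The genes whose pattern was most like that of each member were listed over the 79 libraries by Pearson's r. Cdkn2a was most like Mcm5 (0.96), Chaf1b (0.96) and Tcf19 (0.96), of which Mcm5 is part of the replicative helicase and Chaf1b of a histone chaperone. Cdkn2d was most like Ska2 (0.94), Ppil1 (0.94) and Haus8 (0.93), and Cdkn2b like Tpm4 (0.92), Ppil1 (0.91) and Haus8 (0.91). Cdkn2c was most like Paqr4 (0.94), Ints7 (0.94) and Dek (0.93). For Cdkn1b the genes were Polh (0.95), Toe1 (0.94) and Epc2 (0.94), for Cdkn1a Itpripl2 (0.81), Cd44 (0.81) and Sema3f (0.80), and for Cdkn1c Aldh1a3 (0.87), 1500015O10Rik (0.86) and Mdk (0.85). Trp53 was most like Plxnb2 (0.93), Pml (0.93) and Cnot9 (0.93), of which Pml encodes the organiser of nuclear bodies that p53 enters. Mdm2 was most like Clip1 (0.92), Snx27 (0.91) and Bclaf1 (0.91), and Mdm4 like Arid4b (0.96), Klhl20 (0.96) and Son (0.96). Cdkn1a had the lowest leading value of the 10 over these 79 libraries. Without W5000 to W5005 its r with Cdkn2b alone was 0.86, and in the smaller part its leading value of 0.84 (Avil) was above those of Cdkn1c, Cdkn1b and Cdkn2b.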

How the data were processed

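Prostate RNA of F2 males was depleted of ribosomal RNA and sequenced. The authors trimmed reads with Trimmomatic, aligned them to allele-specific transcriptomes of both parental strains made with Seqnature, and deposited gene TPM values from RSEM, so that each library sums to the same total. The submitters' processing notes name CASAVA 1.8.2, Bowtie2 2.2.5 and RSEM 1.2.20. The annotation behind the table is not given in the sources used here. The study's methods give another number of prostates than there are libraries here, and which libraries it used could not be resolved from the labels, so all were used. TPM keeps no depth, so no counting interval is given. The 20 genes with the largest values took 48.9% to 81.8% of a library (median 66.3%), so other genes move with their share.

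From the table, values were taken as log2(TPM + 1), and genes whose mean reached 1 TPM were tested. All libraries form 1 group by their labels, so the genes were correlated with Mki67 and Chga within parts. A Gaussian mixture on the first principal component gave these parts. The minimum fall in the Bayesian information criterion was 10, the minimum Ashman D was 2, and each part needed at least 6 libraries. Pearson's r was tested with 100000 permutations, two-sided, with Benjamini-Hochberg adjustment over all genes tested, and a call is an adjusted p under 0.05. Pairs of genes were tested in 45 combinations. Symbols were found for 98.6% of identifiers. Positions are from GENCODE M21 on GRCm38, and promoters from RefSeq on GRCm38.p6. No near-identical copy of a member was found with BLAST+ 2.17.0. The work was done in Python 3.11.15 (scikit-learn 1.9.0, scipy 1.17.1, numpy 2.4.6, pandas 2.3.3), and the test was checked on simulated data.

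Named were all 10 genes, up to 4 called genes of each pathway list in each direction with the largest r with Mki67, and the 3 genes most like each member. Genes of a list that were not called were named after their values were seen. The members and lists were chosen with earlier results of these data known. The p53 pair motif, the luminal and proliferation indices, and the settings without the 4, the 6 or the 7 libraries were chosen after seeing the data.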

Additional observations from a re-analysis of the deposited data

How the results depend on the processing

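Of the values recomputed under other settings, 398 kept their side of the threshold, 35 lost a call and 17 gained one. Another 20 reversed, that is, changed sign with a call under at least one of the settings compared. Changes of sign without any call count among the 398, such as that of Cdkn1a in the smaller part with the proliferation index (r = 0.36). The cause of these changes was not tested. With median-of-ratios scaling, r with Mki67 in the larger part was -0.269 for Mdm2 and -0.0599 for Mdm4, r of Cdkn1b with Chga was -0.318, and 2 genes were called with Chga (9.28% of all genes positive, 11% negative). Rescaling without the 20 largest genes gave -0.038 for Mdm2, 1 call with Chga in the larger part (15.1% of all genes positive, 3.66% negative) and 6 with Mki67 in the smaller (35.9% and 24%). After 3 principal components, 5 genes were called with Mki67 in the larger part (8.97% of all genes positive, 13.4% negative), 1 in the smaller (3.42% and 0.568%), and 16 pairs (25.1% and 12.7% with Trp53). There, r with Mki67 was -0.0161 for Mdm2, -0.294 for Cdkn1b and -0.0425 for Cdkn1c in the larger part and -0.183 for Cdkn2c in the smaller, and r with Chga in the smaller part was 0.527 for Trp53, 0.534 for Mdm2, 0.259 for Cdkn1a, 0.167 for Cdkn1c and 0.135 for Cdkn2a. After the luminal index, a setting chosen after seeing the data, 1 gene was called with Mki67 in the smaller part (20.7% and 3.35%). With the proliferation index, 6 were called there (26.6% and 1.49%), and r was -0.0409 for Mdm4, 0.462 for Cdkn2a and -0.0295 for Cdkn2b. With Chga in the smaller part, Spearman's rho, leaving out the 2 farthest libraries and leaving out the 4 libraries apart each gave 0 calls (1.87%, 2.96% and 9.39% of all genes positive, 0.109%, 2.5% and 0.164% negative), and without the 4, r was 0.368 for Trp53, 0.38 for Cdkn1a, 0.289 for Cdkn1c and 0.346 for Cdkn2a. No paired analysis was possible because the labels give 1 group. TPM keeps no depth, so the precision of low values such as those of Cdkn1a and Cdkn2a is unknown.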
